A study of Mus musculus with 13 samples.

Results

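The genes described here were 7 transcripts that mark the layers of the epidermis, and they were taken from the deposited count table by symbol, as 7 of its 25746 genes. Krt5, Krt14 and Krt15 encode keratins of the basal layer, Krt1, Krt10 and Krt2 encode keratins of the layers above it, and Krtdap encodes keratinocyte differentiation-associated protein, a small secreted protein of differentiating keratinocytes. Keratins are intermediate filament proteins that form filaments only as pairs of a type I and a type II chain. Basal keratinocytes build their filaments from keratin 5 (type II) and keratin 14 (type I), and cells that leave the basement membrane switch to keratin 1 (type II) and keratin 10 (type I). Keratin 15 is a second type I keratin of basal cells and is also known from the hair follicle bulge. Keratin 2 is a type II keratin of the upper spinous and granular layers, known in the mouse mainly from ear, tail and sole skin.

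The libraries were RNA-seq libraries of interfollicular keratinocytes (epidermal cells outside the hair follicles) sorted by FACS from skin of C57/BL6 mice. Every mouse carried floxed alleles of Il12rb2, a receptor chain for interleukin-12. The treated libraries were 3 from K14Cre/+ Il12rb2fl/fl mice (Il12rb2-deleted) and 3 from Il12rb2fl/fl mice without Cre (floxed control), whose skin had received Aldara, a cream with 5% imiquimod, for 1 day. Imiquimod is an agonist of Toll-like receptor 7 used to produce psoriasis-like inflammation. The untreated groups were 4 Il12rb2-deleted and 3 floxed control libraries. The Cre is driven by keratin 14 regulatory sequence, so the driver is that of a gene described here, and the labels do not say which K14Cre line was used. The sources used here do not give ages, sexes or the skin site. Neither vehicle-treated mice nor mice with Cre but no floxed Il12rb2 were analysed here, so the cream base and imiquimod cannot be told apart, nor Cre and deletion. No label says that the numbered replicates were separate animals. The p-values therefore speak of the spread among these samples, and that spread may be technical.

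Total counts per library lay between 5830034 and 22232478. Gm10800, a predicted gene, took 14.2% of the counts in floxed control untreated replicate 2, and 5.21% and 10.3% in Il12rb2-deleted untreated replicates 1 and 2. In the other libraries its share was at most 2.22%. Il12rb2-deleted Aldara replicate 1 stood apart, with the lowest median Spearman correlation with the other libraries (0.847). Il12rb2 itself stood at 0, 1.07 and 1.64 CPM (read counts scaled to depth, adjusted by TMM factors for library composition) in Il12rb2-deleted Aldara libraries, against 1.98, 8.14 and 2.68 CPM in floxed control Aldara libraries. Untreated, it stood at 22.7, 8.52, 25.6 and 19.0 CPM in the deleted libraries, against 17.1, 78.8 and 52.7 CPM in the floxed control, so the ranges of the untreated genotypes overlapped and transcript of the gene was still counted in deleted libraries. Whole-gene counts do not show whether that transcript held the floxed exons.

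All 7 genes had counts, and all 7 were among the 16051 genes that passed the filter on low counts. In GRCm38 the 3 type II genes lie on the minus strand of chromosome 15, Krt5 at chr15:101707070-101712898, Krt2 at chr15:101810689-101818169 and Krt1 at chr15:101845426-101850794. The 3 type I genes lie on the minus strand of chromosome 11, Krt10 at chr11:99385254-99389364, Krt15 at chr11:100131758-100135928 and Krt14 at chr11:100203162-100207548. Krtdap lies apart from both clusters on the plus strand of chromosome 7, at chr7:30787896-30791097. Of the 100-base windows in the annotated transcripts, 3.81% in Krt5 were identical to windows of Krt6a, Gm5478 or Gm44323, and 2.78% in Krt14 were identical to windows of Krt16. None was shared with another gene in Krt15, Krt1, Krt10, Krt2 or Krtdap. The exons of Krt5 and Krt10 overlap those of Gm44323 and Gm11940, and the sources used here do not say how overlaps were counted. Neither Gm44323 nor Gm11940 has a row in the count table, and Gm5478 had 29 counts over all libraries.

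Sequences around the start sites are shown for Krt10 and Krtdap, a suprabasal pair from separate chromosomes that was lower after Aldara, and for Krt5 as a basal counterpart. Each runs from 250 bases before to 50 bases after the start site in RefSeq (GRCm38.p6). The windows are chr11:99389315-99389614 (minus strand) for Krt10, chr7:30787655-30787954 (plus strand) for Krtdap and chr15:101712856-101713155 (minus strand) for Krt5. Capitals mark 3 of the motifs searched on both strands. The first is TATAAA, an element of many core promoters. The second is TGANTCA, the sequence that AP-1 factors bind. The third is CACCC, the core bound by KLF factors.
Krt10: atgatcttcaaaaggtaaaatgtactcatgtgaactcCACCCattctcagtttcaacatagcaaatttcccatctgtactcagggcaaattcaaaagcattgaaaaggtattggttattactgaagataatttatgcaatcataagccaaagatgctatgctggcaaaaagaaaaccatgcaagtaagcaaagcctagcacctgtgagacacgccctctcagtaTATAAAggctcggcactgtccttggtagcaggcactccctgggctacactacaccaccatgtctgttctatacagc
Krtdap: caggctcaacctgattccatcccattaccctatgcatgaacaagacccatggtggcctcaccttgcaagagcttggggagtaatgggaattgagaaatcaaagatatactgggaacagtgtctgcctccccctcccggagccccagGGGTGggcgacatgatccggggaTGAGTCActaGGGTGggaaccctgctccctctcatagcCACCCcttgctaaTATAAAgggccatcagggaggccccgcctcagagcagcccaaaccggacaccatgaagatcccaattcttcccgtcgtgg
Krt5: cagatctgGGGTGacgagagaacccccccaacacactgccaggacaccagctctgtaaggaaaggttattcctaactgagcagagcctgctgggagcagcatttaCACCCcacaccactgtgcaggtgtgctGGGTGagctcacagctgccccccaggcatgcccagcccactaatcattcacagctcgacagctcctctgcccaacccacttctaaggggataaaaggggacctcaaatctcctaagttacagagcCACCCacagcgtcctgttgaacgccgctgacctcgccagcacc
TATAAA stood from position -26 to -21 in Krt10 and from -30 to -25 in Krtdap, counted from the start site, and was not found in the Krt5 window. TGANTCA was found in Krtdap, from position -81 to -75, and in neither of the other windows shown. CACCC was found 1 time in Krt10, 3 times in Krtdap and 4 times in Krt5. Among 32851 promoter windows of the same length, 13.6% held TATAAA, 7.81% held TGANTCA and 57.5% held CACCC. Also searched, and not marked, were GCCNNNGGC (AP-2 factors) and TTNNGNAA (C/EBP factors), held by 16.6% and 40.7% of those windows. GCCNNNGGC was in none of the windows shown. TTNNGNAA was in Krt10 (-133 to -126 and -119 to -112) and Krtdap (-161 to -154), and not in Krt5. A match is a run of letters and not a bound site. The RefSeq window of Krt2 held CACCC 1 time, TTNNGNAA from position -230 to -223, and none of the other motifs. The window of Krt14 starts at an internal transcript start and was not used, and no window was matched for Krt1 and Krt15.

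One day of Aldara was followed by lower transcript levels of 6 of the 7 genes in Il12rb2-deleted keratinocytes and of 5 of the 7 in floxed control keratinocytes. Of all 16051 genes tested, 7.69% were called lower in the deleted libraries (15.5% in either direction) and 2.90% in the floxed control (7.05% in either direction). With 1 library left out, the count of the 7 was 5 to 6 in deleted libraries and 1 to 5 in the floxed control, lowest without untreated replicate 2, where the count over all genes was 215 in place of 1132. It was 2 without floxed control untreated replicate 3, 2 without Aldara replicate 1 and 3 without Aldara replicate 2. The estimated fold was largest for Krt10, 17.1-fold lower in deleted and 18.4-fold lower in floxed control libraries. Krt1 was 7.03-fold lower in deleted and 9.43-fold lower in floxed control libraries, and Krt15 6.44-fold and 4.51-fold lower. In deleted libraries the order of Krt1 and Krt15 was not stable. Krt15 had the larger fall without Aldara replicate 1 (log2 fold change -2.31, against -2.28 for Krt1), without untreated replicate 3 (-2.82 against -2.69) and without untreated replicate 4 (-2.82 against -2.70). Krt5, of the basal pair, was 3.00-fold and 2.22-fold lower. Krt2 had at most 44 counts in any library. No gene of the 7 differed between genotypes past the threshold, untreated or after Aldara. In bulk libraries such as these, fewer cells of a type and less RNA per cell cannot be told apart. CPM are shares of a library, so all levels are relative to the other transcripts of the same cells.

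Krt14, the basal type I keratin, was the most abundant of the 7 in every group. It had rank 1 or 2 among all genes by count in 3 of the 4 Il12rb2-deleted untreated libraries. Its levels were 7346, 8891 and 12538 CPM in Il12rb2-deleted Aldara libraries 1 to 3, against 31514, 23257, 20521 and 32629 CPM in deleted untreated libraries 1 to 4. The ranges did not overlap, and the log2 fold change was -1.49 (SE 0.35, adjusted p = 0.00927, edgeR quasi-likelihood test with Benjamini-Hochberg adjustment over all 16051 genes, used throughout). In floxed control libraries Krt14 stood at 7168, 12647 and 6422 CPM after Aldara, against 11523, 12587 and 21471 CPM untreated. Floxed control Aldara replicate 2 lay inside the untreated range, and the log2 fold change of -0.80 (95% interval -1.55 to -0.04) did not pass the threshold (adjusted p = 0.209).

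Krt5, the type II partner of Krt14, stood at 3419.5, 4088 and 5341 CPM in Il12rb2-deleted Aldara libraries, against 17087, 11489.8, 8837 and 13982 CPM in deleted untreated libraries. All Aldara values were below all untreated values, with a log2 fold change of -1.58 (SE 0.31, adjusted p = 0.00341). The floxed control libraries held 3482, 4849 and 2765 CPM after Aldara, against 6451, 8224 and 9991 CPM untreated. Here too the ranges did not overlap, and the log2 fold change was -1.15 (SE 0.32, adjusted p = 0.0427). That call was kept in 10 of 22 alternative settings, with an adjusted p of up to 0.157 when floxed control untreated replicate 3 was left out.

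Krt15, the other type I keratin of the basal layer, had larger fold changes than Krt5 and Krt14. Its CPM were 450.3, 1546 and 1364 in Il12rb2-deleted Aldara libraries, against 12284, 6361, 5087 and 5108 in deleted untreated libraries (log2 fold change -2.69, SE 0.46, adjusted p = 0.00171). The lowest value was in deleted Aldara replicate 1, and the ranges did not overlap. In floxed control libraries the CPM were 1817, 1068 and 1911 after Aldara, against 5068, 7707 and 8841 untreated (log2 fold change -2.17, SE 0.47, adjusted p = 0.0134). The ranges were again separate. The floxed control call was lost when untreated replicate 2 (adjusted p = 0.0567), untreated replicate 3 (0.0582) or Aldara replicate 2 (0.0581) was left out.

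Krt10, the suprabasal type I keratin, had the largest estimated change of the 7. It held 22.4, 164 and 169 CPM in Il12rb2-deleted Aldara libraries 1 to 3, against 2295, 1298, 2488 and 2040.5 CPM in deleted untreated libraries 1 to 4. The ranges were far apart, and the mean was 119 ± 83.3 CPM after Aldara (SD, n = 3), against 2030.3 ± 522 CPM untreated (SD, n = 4). The log2 fold change was -4.10 (SE 0.58, adjusted p = 0.000729), the 87th smallest p of all genes tested. Floxed control libraries held 72.6, 118 and 80.6 CPM after Aldara, against 956, 2024 and 1999 CPM untreated, with a log2 fold change of -4.20 (SE 0.60, adjusted p = 0.00292), the 22nd smallest p. This call was kept in each of the 22 alternative settings in both genotypes.

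Krt1, the type II partner of Krt10, stood at 17.1, 252 and 285 CPM in Il12rb2-deleted Aldara libraries, against 1209.5, 771, 1627 and 1584 CPM in deleted untreated libraries. Replicate 1 of the Aldara group, the library that stood apart, was far lower than the other two. The log2 fold change was -2.81 (SE 0.69, adjusted p = 0.0126), and it was -2.28 without that library, the smallest size among the alternatives, in all of which the call was kept. The floxed control values were 56.5, 169 and 120.3 CPM after Aldara, against 658, 1154 and 1444 CPM untreated (log2 fold change -3.24, SE 0.72, adjusted p = 0.0163). Ranges did not overlap in either genotype. The floxed control call was lost without the 3 libraries high in Gm10800 (adjusted p = 0.0678) and without untreated replicate 2 (0.0595), untreated replicate 3 (0.061) or Aldara replicate 1 (0.073).

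Krt2 was barely detected, with 4, 5 and 0 counts in Il12rb2-deleted Aldara libraries and 0, 4 and 0 in floxed control Aldara libraries. Untreated, it had 15, 6, 0 and 14 counts in the deleted libraries and 1, 16 and 44 in the floxed control. A count of 0 allows up to 3 counts in a library, for counting error only, so most values were at or near that floor and no fold is given. The groups overlapped, and no Aldara test passed (adjusted p = 0.628 in Il12rb2-deleted and 0.449 in floxed control). At these counts a change in Krt2 was not detectable.

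Krtdap was at 82.5, 229 and 223 CPM in Il12rb2-deleted Aldara libraries, against 440.1, 238, 862 and 669.7 CPM in deleted untreated libraries. The ranges only just separated, because untreated replicate 2 lay close to the higher Aldara libraries. The log2 fold change was -1.63 (SE 0.42, adjusted p = 0.0159), and without Aldara replicate 1 it was -1.29 and no longer passed (adjusted p = 0.0617). In floxed control libraries Krtdap stood at 76.8, 109.6 and 137 CPM after Aldara, against 389, 530.3 and 449.8 CPM untreated, with a log2 fold change of -2.08 (SE 0.44, adjusted p = 0.0132). The floxed control ranges were well apart. Leaving out untreated replicate 2 (adjusted p = 0.0609) or Aldara replicate 1 (0.0669) ended the call.

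**Figure D1:**
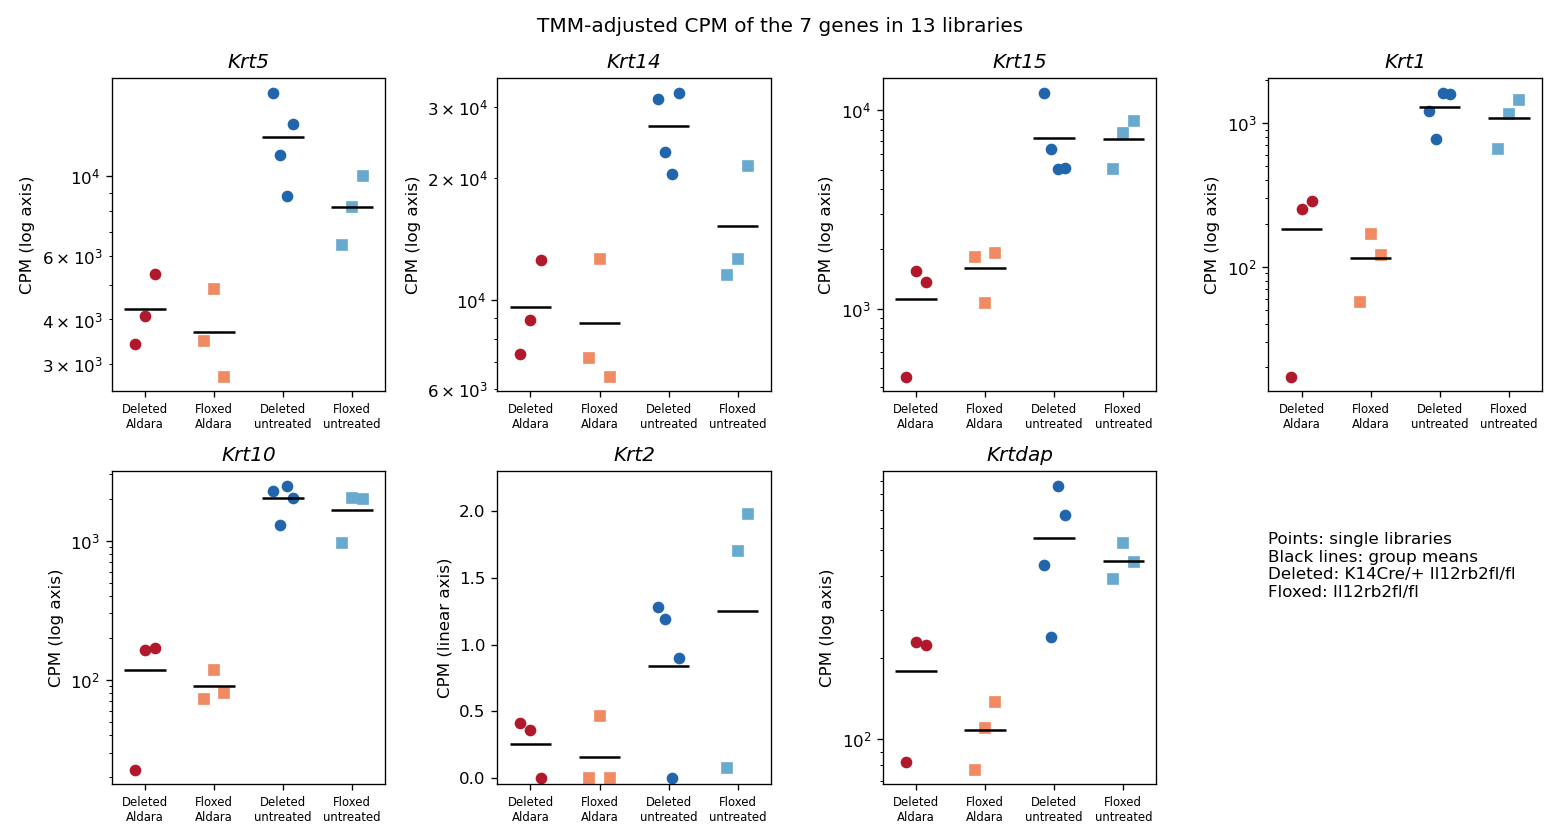
TMM-adjusted CPM of the 7 genes in each of the 13 libraries, on log axes except for Krt2, which has a linear axis. Points are libraries and black lines are group means. Aldara and untreated ranges overlap for Krt2 in both genotypes and for Krt14 in the floxed control. Elsewhere every Aldara library lies below every untreated library of its genotype. The share of all genes tested whose ranges separate in this way was not computed.

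Averaged over genotypes, which uses all 13 libraries, the same 6 genes were lower (11.9% of all genes called lower, 24.9% in either direction). Those averaged log2 fold changes were -1.37 for Krt5 (SE 0.22, adjusted p = 0.000431), -1.14 for Krt14 (SE 0.25, adjusted p = 0.0033) and -2.43 for Krt15 (SE 0.33, adjusted p = 0.000124). Suprabasal values were -3.03 for Krt1 (SE 0.50, adjusted p = 0.000485), -4.15 for Krt10 (SE 0.42, adjusted p = 2.1e-05) and -1.86 for Krtdap (SE 0.30, adjusted p = 0.000471). The median of all tested genes was -0.09 in Il12rb2-deleted and -0.13 in floxed control libraries. With library totals in place of TMM factors, the deleted median was 0.07 and 36.0% of the calls were lower, against 49.6% with TMM factors, and the 6 genes were still called lower. The 3 Aldara comparisons share libraries and are not independent of each other.

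Together the 7 genes took 1.21% to 2.07% of all counts in Il12rb2-deleted Aldara libraries, against 3.76% to 5.96% in deleted untreated libraries. The shares were 1.30% to 1.76% in floxed control Aldara libraries, against 2.77% to 4.41% in floxed control untreated libraries. Krt1, Krt10 and Krt2 alone made up 0.00427% to 0.0471% of counts in deleted Aldara libraries, against 0.179% to 0.422% in deleted untreated libraries. In the floxed control these suprabasal keratins took 0.0132% to 0.0267% after Aldara, against 0.178% to 0.344% untreated.

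Deletion of Il12rb2 was tested against the floxed control within each treatment, the comparison that asks whether the receptor in keratinocytes bears on these levels. After Aldara no gene of the 7 was called, and no gene of all 16051 either (0% called, 690 with an unadjusted p under 0.05, 23 called by DESeq2). Krt14 averaged 9592 ± 2666 CPM in Il12rb2-deleted Aldara libraries and 8746 ± 3399 CPM in floxed control Aldara libraries (SD, n = 3 each). Krt10 averaged 119 ± 83.3 CPM in the deleted Aldara libraries and 90.2 ± 24.0 CPM in the floxed control. The 95% intervals of the log2 difference after Aldara were -0.62 to 0.89 for Krt14, -0.46 to 0.88 for Krt5 and -1.46 to 0.44 for Krt15. They were -0.74 to 2.10 for Krt1, -0.73 to 1.52 for Krt10 and -0.19 to 1.63 for Krtdap, so differences of more than 2-fold remained inside the intervals of Krt15, Krt1, Krt10 and Krtdap.

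Untreated, the basal pair had the smallest unadjusted p-values of the 7. Krt14 averaged 26980.3 ± 6002 CPM in Il12rb2-deleted untreated libraries (SD, n = 4) and 15194 ± 5462 CPM in floxed control untreated libraries (SD, n = 3). The log2 difference was 0.83 (95% interval 0.11 to 1.55, unadjusted p = 0.0266) and did not pass adjustment over all genes in edgeR (adjusted p = 1). For Krt5 it was 0.64 (95% interval 0.01 to 1.28, unadjusted p = 0.0478, edgeR adjusted p = 1). The ranges of the genotypes overlapped for both, through floxed control untreated replicate 3 for Krt14. None of all genes was called in this comparison (0% called, 599 with an unadjusted p under 0.05, 22 called by DESeq2). Krt15 averaged 7210.2 ± 3435 CPM in deleted and 7205 ± 1936 CPM in floxed control untreated libraries, a log2 difference of 0.00 (95% interval -0.89 to 0.89). The intervals of Krt1 (-1.07 to 1.58), Krt10 (-0.76 to 1.34) and Krtdap (-0.58 to 1.13) also held 0.

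The interaction, the Aldara change in Il12rb2-deleted libraries minus that in floxed control libraries, was not called for any of the 7 or for any gene (0% called, 539 with an unadjusted p under 0.05, 2 called by DESeq2). It was -0.70 for Krt14 (95% interval -1.73 to 0.34), -0.43 for Krt5 (-1.35 to 0.49) and -0.51 for Krt15 (-1.82 to 0.79) on the log2 scale. For Krt10 it was 0.10 (-1.43 to 1.64), for Krt1 0.42 (-1.51 to 2.36) and for Krtdap 0.44 (-0.80 to 1.69). The call of Krt14 in deleted libraries and its lack in floxed control libraries therefore is not shown to be a difference between genotypes.

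**Figure D2:**
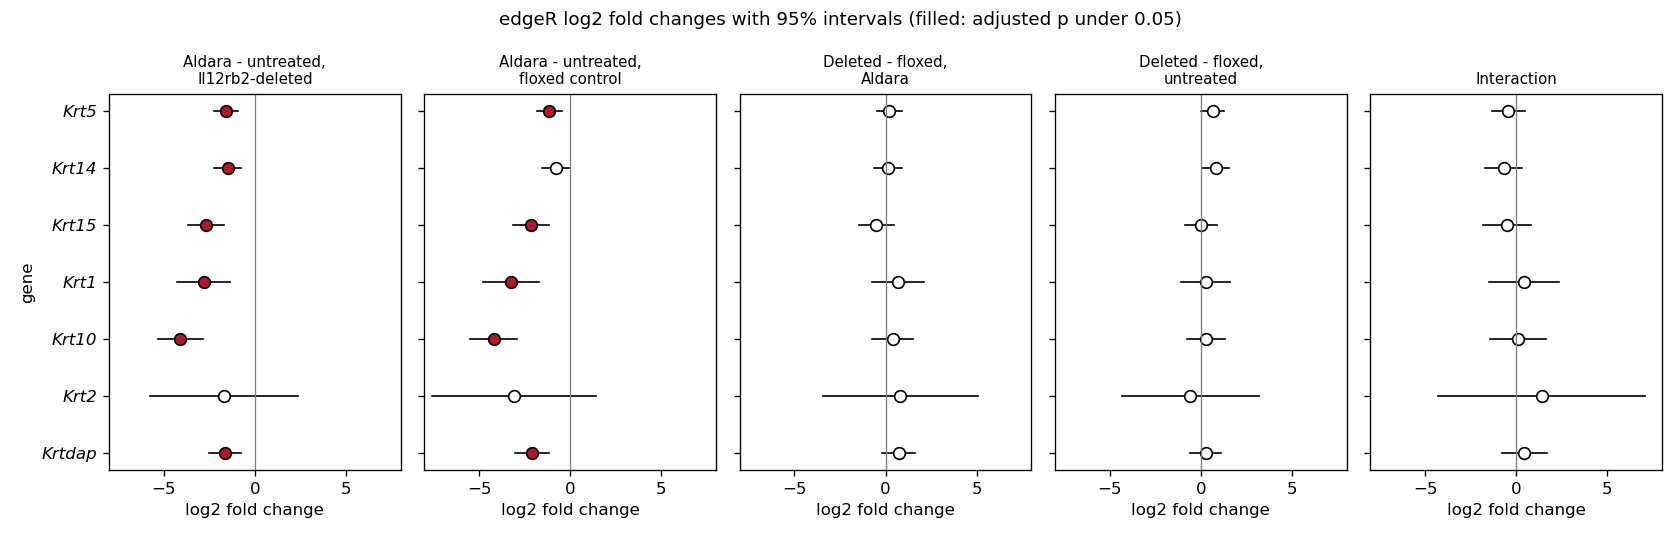
Log2 fold changes of the 7 genes (points) with 95% intervals (lines) in 5 comparisons, filled where the edgeR adjusted p was under 0.05. Aldara values are below 0 for all 7 genes in both genotypes, from -4.20 to -0.80 for the 6 genes other than Krt2, and no interval of the genotype comparisons or the interaction is filled.

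Levels between genes were compared as CPM per kilobase of the longest coding transcript. In Il12rb2-deleted Aldara libraries the order of mean levels was Krt14 (5649), Krt5 (1949.5), Krt15 (659), Krtdap (379), Krt1 (75.2), Krt10 (56.6) and Krt2 (0.0977). In floxed control Aldara libraries it was the same order, from Krt14 (5151) to Krt1 (46.9), Krt10 (43.1) and Krt2 (0.0593). Untreated, Krt10 stood above Krt1 in all libraries, at 969.6 against 529 in the deleted and 793 against 442 in the floxed control, although the ranges over libraries overlapped. After Aldara, Krt1 was above Krt10 in 2 of 3 libraries of each genotype and the ranges overlapped, so their order was not resolved. Krt15 was above Krt5 in all 3 floxed control untreated libraries and below it in all 4 deleted untreated libraries, with overlapping ranges in each group.

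Ratios between the genes within a library do not depend on its scaling, and are given as log2 ratios of counts per length, as descriptions with no test. Krt10 over Krt14, suprabasal over basal type I keratin, was -8.66, -6.06 and -6.51 in Il12rb2-deleted Aldara libraries, against -4.08, -4.47, -3.35 and -4.30 in deleted untreated libraries. In floxed control libraries it was -6.93, -7.05 and -6.62 after Aldara, against -3.89, -2.94 and -3.73 untreated. The means differed by -3.03 and -3.35, and every Aldara library was below every untreated one of its genotype. The type II counterpart, Krt1 over Krt5, was -7.80, -4.18 and -4.39 in deleted Aldara libraries, against -3.98, -4.06, -2.60 and -3.30 in deleted untreated libraries. It was -6.11, -5.00 and -4.68 in floxed control Aldara libraries, against -3.45, -2.99 and -2.95 untreated, and again neither genotype's groups overlapped, though deleted Aldara replicate 2 was close to deleted untreated replicate 2. Deleted Aldara replicate 1 was the lowest library in both ratios.

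Within the suprabasal pair, Krt1 over Krt10 was -0.62, 0.39 and 0.52 in Il12rb2-deleted Aldara libraries, against -1.15, -0.98, -0.84 and -0.59 in deleted untreated libraries. It was -0.59, 0.29 and 0.35 in floxed control Aldara libraries, against -0.77, -1.04 and -0.70 untreated. The type I chain thus fell further than its partner in the means of both genotypes, by 0.99 and 0.85 on the log2 scale, with groups that overlapped in the deleted libraries and not in the floxed control. Krt5 over Krt14 differed little, by -0.07 in Il12rb2-deleted and -0.36 in floxed control libraries, and the groups overlapped. Krt15 over Krt14 was -4.03, -2.52 and -3.20 in deleted Aldara libraries, against -1.36, -1.87, -2.01 and -2.68 in deleted untreated libraries, which overlapped. For the floxed control it was -1.98, -3.57 and -1.75 after Aldara, against -1.19, -0.71 and -1.28 untreated, which did not. Between untreated genotypes the means of this ratio differed by -0.92 (deleted minus floxed control, log2 scale), and the groups only just separated, at -1.36 and -1.28. Krt15 itself had a log2 difference of 0.00 there and Krt14 of 0.83, and neither was called. The share of all gene pairs whose ratios separate in this way was not computed, here or between treatments.

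**Figure D3:**
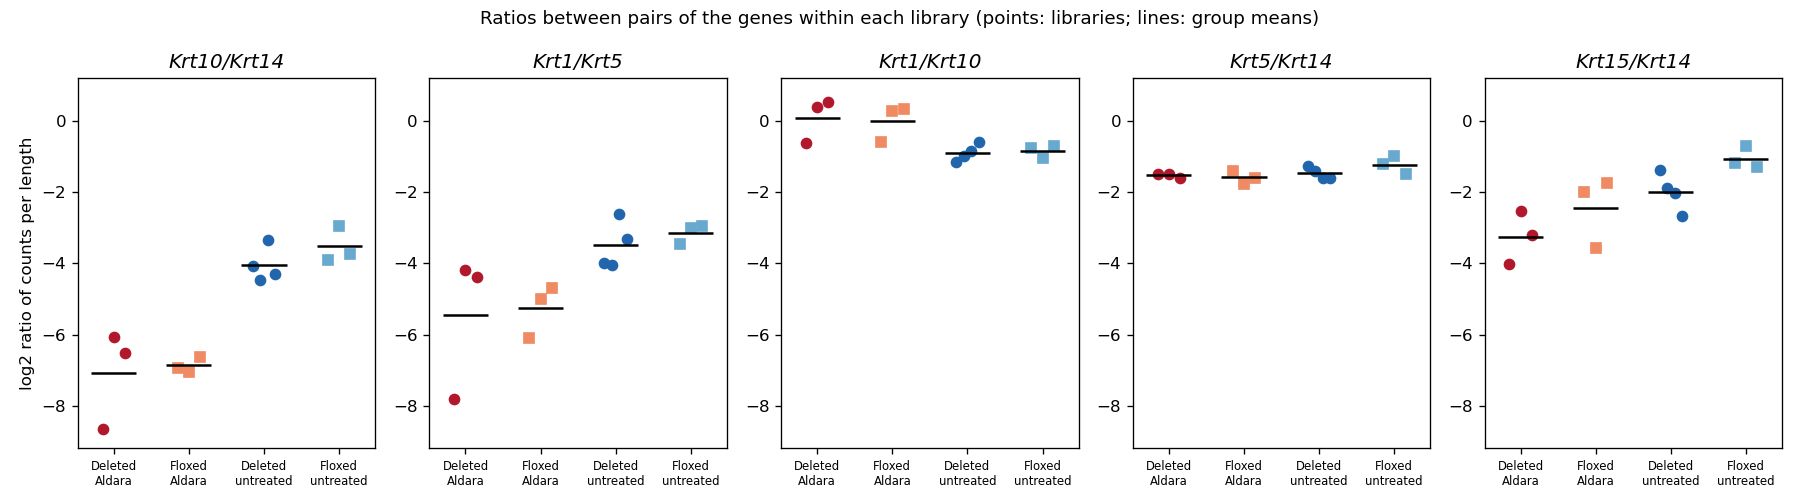
Log2 ratios of counts per length between 5 pairs of the genes in each library (points), with group means (lines), by genotype and treatment. Krt10 over Krt14 and Krt1 over Krt5 lie lower in all Aldara libraries than in the untreated libraries of the same genotype, and Krt5 over Krt14 stays between -1.76 and -0.99 in all 13.

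Partner keratins also varied together among libraries of 1 treatment. Because the treatments form separate clusters, correlations of log2 CPM were computed within each, as 4 relations with Pearson and Spearman coefficients, 8 exact permutation tests in all, adjusted together by Benjamini-Hochberg. Among the 6 Aldara libraries Krt1 and Krt10 had r = 0.982 (exact permutation p = 0.00278, adjusted 0.00556) and rho = 1.00 (p = 0.00278, adjusted 0.00556), with r = 0.991 without the 2 libraries farthest from the median. Among the 7 untreated libraries r was 0.922 (exact permutation p = 0.0155, adjusted 0.0206) and rho 0.821 (p = 0.0341, adjusted 0.0341), but r fell to 0.258 without floxed control replicate 1 and deleted replicate 2, so that relation rests on those samples. Krt5 and Krt14 had r = 0.968 after Aldara (exact permutation p = 0.0111, adjusted 0.0178) and 0.933 untreated (p = 0.00119, adjusted 0.00556). Their rho was 0.886 after Aldara (exact permutation p = 0.0333, adjusted 0.0341) and 0.964 untreated (p = 0.00278, adjusted 0.00556). Without the 2 farthest libraries, r was 0.987 after Aldara and 0.909 untreated. No pairs other than these partners were tested. Over all 13 libraries with group means taken out, r was 0.968 for Krt1 with Krt10 and 0.916 for Krt5 with Krt14. Some genes that are not partners reached such values, as Clca2 with Krt1 (0.977) and Zfand5 with Krt14 (0.951), both picked for high correlation. Close variation was therefore not particular to partners.

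Of the keratin genes listed, 46 were in the count table and 31 were tested, and 25 of those tested were keratins other than the 6 described above. Among those 25, Krt77, Krt80, Krt78 and Krt19 were called lower after Aldara in Il12rb2-deleted libraries and none was higher. Krt19 ranged over 3.56 to 463 CPM in deleted untreated libraries and 0 to 0.409 CPM in deleted Aldara libraries. In floxed control libraries Krt77 and Krt80 were called lower and Krt6b higher. Of all genes tested, 7.69% were lower in deleted libraries, and 2.90% were lower and 4.15% higher in the floxed control. Averaged over genotypes, 5 of the 25 were lower and 2 higher. The medians of the 25 were -0.94 in deleted and -0.86 in floxed control libraries, beside -0.09 and -0.13 over all genes. Several of the 25 were near the floor, as Krt20 (mean 0.183 CPM untreated and 1.84 CPM after Aldara) and Krt27 (0.751 and 0.672 CPM). The medians therefore rest in part on uncertain values. Here and in what follows, values after ± are SDs over 3 libraries, or over 4 for the deleted untreated group. Krt77, a type II keratin whose gene lies beside Krt1 at chr15:101858731-101869705, averaged 34.4 ± 19.5 CPM in deleted Aldara libraries and 750.4 ± 314 CPM in deleted untreated libraries, a log2 fold change of -4.44 (SE 0.47, adjusted p = 0.00016). It averaged 63.5 ± 4.88 CPM in floxed control Aldara libraries and 773 ± 272 CPM untreated (log2 fold change -3.61, SE 0.46, adjusted p = 0.00186). Krt80, a type II keratin of differentiating epithelia, also fell, by 3.00 in deleted and by 2.41 in floxed control libraries on the log2 scale.

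The keratins that epidermis is known to induce on injury and in psoriasis, Krt6a, Krt6b, Krt16 and Krt17, gave no call of a lower level. Averaged over genotypes, Krt6a had a log2 fold change of 2.12 (SE 0.61, adjusted p = 0.0184) and Krt6b of 3.53 (SE 0.93, adjusted p = 0.0112). Within genotypes only Krt6b in the floxed control passed (5.40, SE 1.51, adjusted p = 0.0442). Krt6b ranged over 1.92 to 32.3 CPM in floxed control Aldara libraries and 0.442 to 0.533 CPM in floxed control untreated libraries. Krt16 (-0.84, adjusted p = 0.217) and Krt17 (-0.01, adjusted p = 0.983) were not called in the average. For Krt16 the values were -1.64 in deleted (adjusted p = 0.111) and -0.05 in floxed control libraries (adjusted p = 0.983). Untreated, Krt16 averaged 1252 ± 851 CPM in deleted and 140 ± 48.8 CPM in floxed control libraries, a difference that was not called. Krt6a and Krt6b are near-identical in sequence, so the split of counts between them is uncertain.

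**Figure D4:**
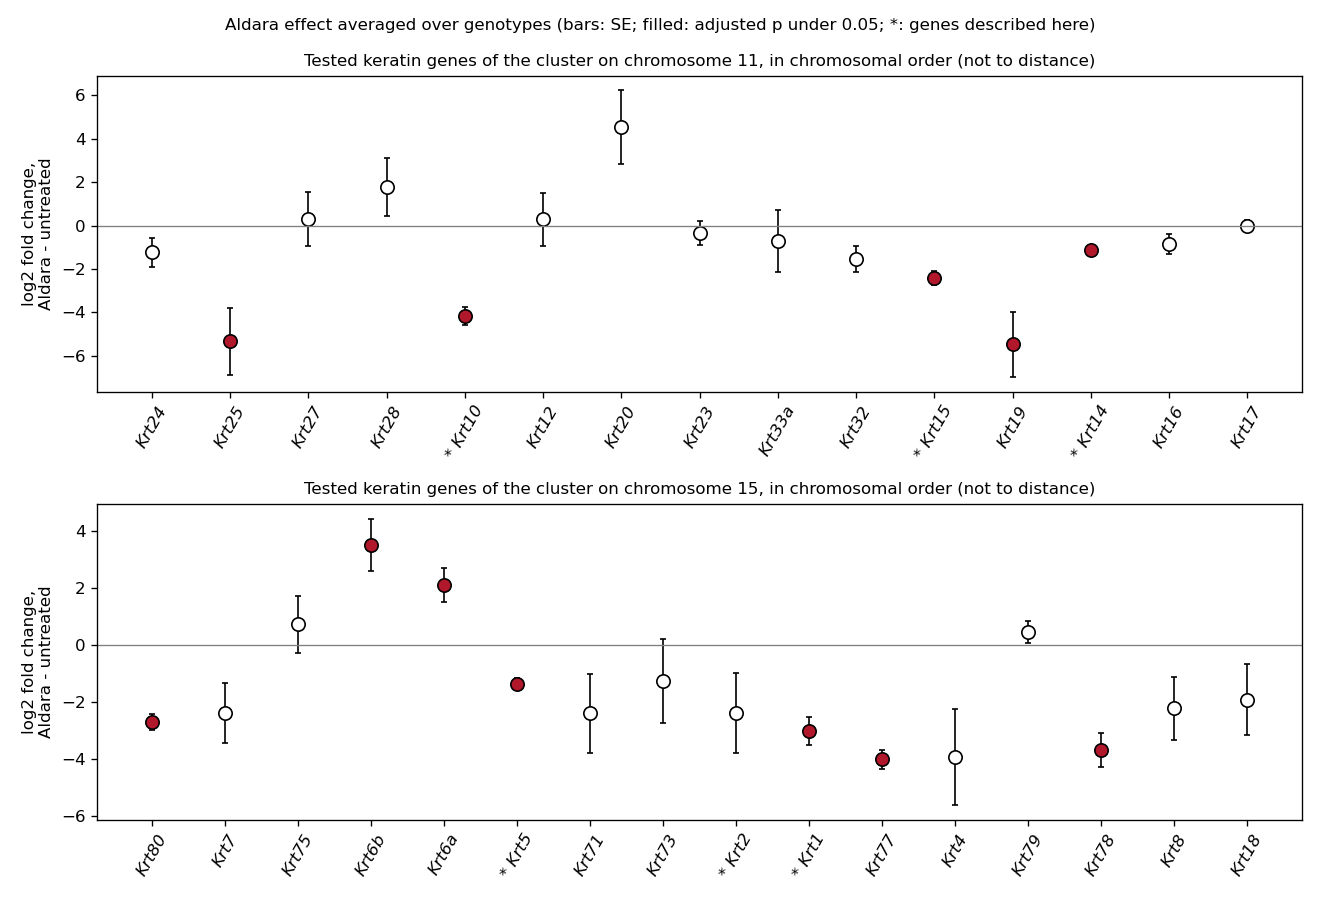
Log2 fold change of Aldara against untreated, averaged over genotypes, for the 31 tested keratin genes in their order along chromosomes 11 and 15 (points, bars for SE, filled where the edgeR adjusted p was under 0.05). Stars mark the genes described here. Filled points lie below 0 for 10 genes, 5 of them with a star, and above 0 for Krt6a and Krt6b.

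Desmosome genes, whose proteins anchor keratin filaments at cell junctions, were lower in part. Of 13 tested, 10 were called lower after Aldara in Il12rb2-deleted libraries (median log2 fold change -1.55) and 4 in floxed control libraries (median -0.90). None was higher in either. Of all genes tested, 7.69% were called lower in deleted and 2.90% in floxed control libraries. Dsg1a, a desmoglein of suprabasal layers, averaged 25.2 ± 14.9 CPM in deleted Aldara libraries and 451 ± 133 CPM in deleted untreated libraries (log2 fold change -4.16). It averaged 32.8 ± 17.3 CPM in floxed control Aldara libraries and 407 ± 135 CPM untreated (log2 fold change -3.63). Dsc3, the desmocollin of basal cells, had -1.94 in deleted and -1.27 in floxed control libraries. Dsg1a and Dsg1b are close copies, so the split of counts between them is uncertain.

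Genes that tie basal cells to the basement membrane gave 8 lower and 1 higher of 15 tested in Il12rb2-deleted libraries, and 4 lower and 0 higher in floxed control libraries. The shares of all genes tested were 7.69% lower and 7.81% higher in deleted, and 2.90% and 4.15% in floxed control libraries. The 1 higher of 15 was near the share of all genes called higher. The medians were -0.76 in deleted and -0.33 in floxed control libraries. The gene that was higher was Nid1, a basement membrane linker also made by fibroblasts, named after its values were seen (log2 fold change 1.89, adjusted p = 0.0101). Col17a1, the hemidesmosomal collagen that binds keratin 5 and 14 filaments to the membrane through its partners, averaged 684 ± 161 CPM in deleted Aldara libraries and 4212 ± 1184 CPM in deleted untreated libraries. Its log2 fold changes were -2.62 in deleted and -1.71 in floxed control libraries. Col7a1, the anchoring fibril collagen, had -2.96 in deleted and -2.01 in floxed control libraries.

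Among 23 tested genes of the suprabasal layers and cornified envelope other than keratins, 9 were lower and 1 higher in Il12rb2-deleted libraries (median -1.44). In floxed control libraries 3 were lower and 0 higher (median -0.53). Beside these, 7.69% of all genes tested were lower and 7.81% higher in deleted, and 2.90% and 4.15% in floxed control libraries. The 1 higher call was not above the share of all genes. Ppl, encoding periplakin of the cornified envelope, averaged 74.4 ± 18.9 CPM in deleted Aldara libraries and 295 ± 23.8 CPM in deleted untreated libraries (log2 fold change -1.99). It averaged 84.9 ± 11.1 CPM in floxed control Aldara libraries and 246 ± 42.9 CPM untreated (log2 fold change -1.53). Mt4, the metallothionein of stratified epithelia, averaged 0.791 ± 0.687 CPM in deleted Aldara libraries and 51.2 ± 25.4 CPM in deleted untreated libraries (log2 fold change -5.93). Ivl, encoding the envelope precursor involucrin, was the gene of the list that was higher in deleted libraries (log2 fold change 0.94, SE 0.29, adjusted p = 0.0392), and is named after its values were seen.

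Transcription factors and signalling genes known to regulate keratin genes gave 9 lower and 2 higher of 30 tested in Il12rb2-deleted libraries (median -1.14). In floxed control libraries 3 were lower and 1 higher (median -0.71). Over all genes tested the shares were 7.69% lower and 7.81% higher in deleted, and 2.90% and 4.15% in floxed control libraries. The higher calls of the list were near those shares. Maf, a factor of epidermal differentiation, averaged 3.50 ± 1.88 CPM in deleted Aldara libraries and 36.5 ± 6.26 CPM in deleted untreated libraries (log2 fold change -3.37). It averaged 10.3 ± 6.09 CPM in floxed control Aldara libraries and 46.2 ± 4.91 CPM untreated (log2 fold change -2.15). Ovol1, which promotes exit from the basal state, was lower in deleted libraries, at -2.82, with -1.15 in floxed control libraries, which did not pass (adjusted p = 0.161). Cebpb, a factor of early differentiation, was higher, at 1.85 in deleted libraries (adjusted p = 0.0144), with a mean of 37.3 ± 5.97 CPM after Aldara and 10.3 ± 5.72 CPM untreated.

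The 5 genes most like each of the 7 in pattern over the 13 libraries were found by Pearson's r of log2 CPM, a measure that mostly follows the split between treatments and is given without a p. For Krt10 they were Trim7 (r = 0.992), Tppp3 (0.987), Phldb1 (0.984), Tuba1a (0.982) and Krt80 (0.980). For Krt1 they were Pglyrp4 (0.983), Pkp1 (0.981), Clca2 (0.980), Il20ra (0.978) and Ndufa4l2 (0.977), and with group means taken out r was still 0.972 for Pglyrp4 and 0.938 for Pkp1. Krt14 was closest to Csrnp1 (0.972) and Sqstm1 (0.970), Krt5 to Ckap5 (0.972) and Cntrl (0.967), and Pkp3 was among the closest 5 of both (0.960 and 0.959). Krt15 was closest to Ikzf2 (0.976), Gsn (0.976) and Gata3 (0.975), and Krtdap to Fam25c (0.955) and Pnrc1 (0.949). For Krt2 the closest was Kat14 (0.880), a value drawn from counts near the floor.

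Markers of other cells that skin holds moved with treatment beside these results. Of 14 sebaceous markers, 10 were called higher in Il12rb2-deleted and 7 in floxed control libraries, where 7.81% and 4.15% of all genes tested were called higher. Krt79, a keratin used as a sebaceous gland marker, was not called (adjusted p = 0.625 in deleted and 0.731 in floxed control libraries, edgeR). The summed level of the 14 was 5612 to 6804 CPM in deleted Aldara libraries, against 546 to 2525 CPM in deleted untreated libraries. It was 5217 to 9739.7 CPM in floxed control Aldara libraries, against 1226 to 2864 CPM untreated. Plin2 averaged 1537 ± 294 CPM and Fabp5 1097 ± 54.7 CPM in deleted Aldara libraries, against 219 ± 157 and 153 ± 67.6 CPM in deleted untreated libraries. A large part of the deleted Aldara sums thus came from these genes. Of 10 fibroblast markers, 6 were lower in deleted and 4 in floxed control libraries (7.69% and 2.90% of all genes tested). Their sums were 122 to 297 CPM in deleted Aldara, against 1075 to 2590.5 CPM in deleted untreated libraries. The sums were 172 to 462 CPM in floxed control Aldara, against 1135 to 1352 CPM in floxed control untreated libraries. Hair follicle markers summed to 791 to 941 CPM in deleted Aldara, against 1437 to 1883 CPM in deleted untreated libraries, and to 908 to 1375 CPM in floxed control Aldara, against 1297 to 1878 CPM untreated. Of 9 tested, Gata3 and Cd34 were lower in deleted and Gata3 in floxed control libraries, and none was called higher in either. Gata3 alone averaged 289 ± 103 CPM in deleted Aldara and 1025 ± 268 CPM in deleted untreated libraries. In the floxed control it averaged 393 ± 49.3 CPM after Aldara and 1092 ± 313 CPM untreated. It was thus a large part of the untreated sums, and their fall does not stand for the list. The medians of the 9 were 0.05 in deleted and 0.16 in floxed control libraries. The sums overlapped between treatments in the floxed control. Sox9 was at 0.84 in deleted and 1.52 in floxed control libraries without passing (adjusted p = 0.278 and 0.0994). No sebaceous or fibroblast marker was at 0 throughout a group, and of the follicle markers Shh was at 0 in floxed control Aldara libraries. The part of these cells in the keratin results was not tested.

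The remaining marker lists held fewer calls. For these lists too, 7.69% of all genes tested were lower and 7.81% higher in deleted, and 2.90% and 4.15% in floxed control libraries. Langerhans cell markers summed to 140.1 to 767 CPM in deleted Aldara and 59.95 to 396 CPM in deleted untreated libraries. H2-Aa and H2-Ab1, 2 of 7 tested, were called higher in deleted libraries, and Cd207 was at 0 in the deleted Aldara group. Averaged over genotypes Cd207 was called lower (log2 fold change -6.08, adjusted p = 0.0254, edgeR), although it reached at most 4.48 CPM in any library. Floxed control sums of this list were 159 to 368 CPM after Aldara and 173 to 399 CPM untreated, with 0 of 7 called. Neutrophil markers summed to 72.6 to 183 CPM in deleted Aldara and 0.544 to 20.8 CPM in deleted untreated libraries, with S100a8 and S100a9, which keratinocytes also express in inflamed skin, called higher of 3 tested in deleted libraries. In the floxed control the sums were 18.4 to 39.98 CPM after Aldara and 1.40 to 3.68 CPM untreated, and S100a8 alone was called (adjusted p = 0.21 for S100a9). T cell markers summed to at most 46.1 CPM in any library, with Cd3d at 0 in the floxed control Aldara and deleted untreated groups and 1 of 5 tested called lower in each genotype. Of 10 proliferation genes, 2 were lower and 3 higher in deleted, and 0 lower and 4 higher in floxed control libraries. Melanocyte and Merkel cell markers gave no call among 6 tested each in either genotype, and of 6 endothelial and mural markers 1 was lower in floxed control libraries. Simple epithelial keratins gave 1 lower of 6 in deleted and 0 in floxed control libraries. That gene was Krt19, with the wide range among deleted untreated libraries given above. The part of these cells was not tested either.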

How the data were processed

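The values were raw read counts per gene, whole numbers that the authors deposited without normalization. The aligner STAR, the Subread counter featureCounts and build GRCm38 come from the submitters' processing notes. Versions, annotation, strand setting and treatment of multimapping reads were not given in the sources used here. Per the labels' protocols, library preparation followed Smart-seq2, without molecular identifiers, with single-end reads on a NovaSeq instrument. Total counts per library were 5830034 to 22232478, and intervals and floors cover counting error only.

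The 7 genes were taken by symbol. GENCODE M21 (GRCm38) held 25712 of the 25746 gene identifiers and gave coordinates and transcript lengths. Promoter sequences came from RefSeq (GRCm38.p6), which matched 5 of the 7 genes. edgeR 4.0.16 in R 4.3.3 kept 16051 genes (filterByExpr, minimum count 10) and fitted TMM factors and 1 coefficient per group over all 13 libraries with a quasi-likelihood model. P-values were adjusted by Benjamini-Hochberg over all genes tested, genes were called under 0.05, and SE was derived from the log2 fold change and the F statistic. CPM are TMM-adjusted, log2 CPM use a prior count of 2, and exact permutation tests used SciPy 1.17.1. The steps were tested on simulated data. Alternatives included DESeq2 1.42.0, limma 3.58.1 (voom), other scalings, no low-count filter, a replicate block and left-out libraries.

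The 7 genes, the gene lists, the libraries high in Gm10800 and the alternatives were chosen with earlier results of these data known, so the lists are not independent evidence. The other genes named are mostly up to 4 of each list with the smallest p in an Aldara comparison. Others are among the 5 most correlated with each of the 7 at an average log2 CPM of at least 3. Nid1, Ivl and Ccnb1 were named after their values were seen, as were Shh and Cd3d, which stood at 0 in a group. Leaving the Gm10800-high libraries out of those correlations was chosen after seeing the data.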

Additional observations from a re-analysis of the deposited data

How the results depend on the processing

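With each library left out in turn, the number of the 7 genes called after Aldara was 5 to 6 in Il12rb2-deleted libraries (6 with all), 6 to 6 averaged over genotypes (6 with all) and 1 to 5 in the floxed control (5 with all). In the floxed control, 1 was left without untreated replicate 2 (Krt10), 2 without untreated replicate 3, 2 without Aldara replicate 1 and 3 without Aldara replicate 2. Without the 3 untreated libraries high in Gm10800 it was 3. Krt14 was not called in the floxed control under any of 22 alternatives, and Krt10 was called under each in both genotypes. Over all genes, the floxed control count of 1132 was 2022 with DESeq2, 270 without those 3 libraries, and 215 to 1451 with 1 library left out (215 without untreated replicate 2, 288 without untreated replicate 3, 422 and 618 without Aldara replicates 1 and 2). The Il12rb2-deleted count of 2489 was 1466 without those 3 libraries and 1650 to 2764 with 1 left out, the lowest without untreated replicate 1. The averaged count of 3994 was 2622 without those 3 libraries and 3142 to 4004 with 1 left out. Fewer libraries entered these fits, and the cause was otherwise not tested. The genotype count of 0 was 3 untreated and 1 after Aldara with no low-count filter, and 22 and 23 with DESeq2. The interaction count of 0 was 2 with DESeq2 and 0 to 1 with 1 library left out (1 without floxed control untreated replicate 3). Library totals in place of TMM factors moved the median of all genes in Il12rb2-deleted libraries to 0.07, against -0.09, and the interaction median to 0.14, against 0.01. Of 452 tests of the 7 genes after Aldara, 430 kept their side of the threshold, 22 lost it and none changed sign. In the untreated difference between genotypes, the Krt10 over Krt14 ratio was -0.01 and the Krt1 over Krt5 ratio 0.25 without those 3 libraries, against -0.53 and -0.35 with all.

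Same-numbered libraries of the 2 treatments had correlations of their deviations of 0.04, -0.01 and 0.05 in Il12rb2-deleted and 0.10, 0.24 and 0.00 in floxed control libraries, and between the 2 genotypes -0.10, 0.42 and 0.30 untreated and 0.00, -0.04 and -0.01 after Aldara. Not every pair of any comparison was over 0.1, so the numbers were not taken to pair the libraries. With the replicate number as a block, 6 of the 7 genes were called in Il12rb2-deleted libraries and 4 in the floxed control, where Krt5 was not (adjusted p = 0.0888, edgeR), and 1919 and 831 of all genes.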

Other observations

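The place of the suprabasal keratins among all transcripts of a library shows how unequal the Aldara libraries were. By count, Krt10 had rank 6610 of all genes in Il12rb2-deleted Aldara replicate 1 but rank 1072 and 1054 in replicates 2 and 3 of that group. In floxed control Aldara libraries its ranks were 2842, 1596 and 2419. Untreated, its ranks were 38, 51, 31 and 46 in Il12rb2-deleted and 52, 31 and 34 in floxed control libraries. Krt1 had rank 7376 in the same Il12rb2-deleted Aldara replicate 1, and 625 and 517 in replicates 2 and 3. Krt14 had ranks 6, 6 and 3 in Il12rb2-deleted Aldara libraries, against 2, 5, 1 and 1 in deleted untreated libraries. Its ranks in the floxed control were 5, 6 and 6 after Aldara, against 5, 7 and 4 untreated.

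Of 10 proliferation genes, 4 were called higher and 1 lower after Aldara in the average over genotypes, with a median log2 fold change of 0.15. Of the 16051 genes tested, 2080 were called higher and 1914 lower there. In that average, Rrm2, a subunit of ribonucleotide reductase, had a log2 fold change after Aldara of 2.12 (adjusted p = 8.46e-05, edgeR), and Ccne1, encoding cyclin E1, of 3.10 (adjusted p = 0.000237, edgeR). Mcm2, of the replicative helicase, had 1.45 (adjusted p = 0.00117, edgeR), and Pcna had 1.02 (adjusted p = 0.00265, edgeR). Ccnb1, encoding the mitotic cyclin B1, fell by 0.93 (adjusted p = 0.0157, edgeR) and is named after its values were seen.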
